A study of Mus musculus with 8 samples.

Results

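The sterol genes described here are 31 mouse genes that make cholesterol, sense it, or move and store it. They were taken by name from a fixed list of symbols, which was chosen with earlier results of these data known. All 31 were found among the 14504 genes tested, and each was well above background on all 6 arrays of the test. They comprised 7 genes of the mevalonate arm, which builds isoprenoid units from acetyl-CoA, and 11 genes that turn those units into squalene, lanosterol and cholesterol. Another 5 belonged to the SREBP system, which senses sterol, 5 to the LXR nuclear receptors and the efflux genes they control, and 3 to cholesterol transport and storage.

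Expression was measured on Agilent 1-colour arrays in mouse cells of the strain C57BL/6 that carry a Tet-on Runx1 transgene, named iRUNX1. Stem cells were differentiated as embryoid bodies for 3.25 days. Those with the VEGF receptor Flk-1 were purified on magnetic beads, cultured in blast medium and purified again, and the second Flk-1+ fraction was grown for 2 days as hemogenic endothelium. The induced group received doxycycline overnight at 0.3 µl/ml, as the labels write the dose, and the uninduced group received none. The comparison asked which transcripts differed once Runx1, a transcription factor needed for blood cells to form from endothelium, was switched on. Each group held 3 arrays that the labels call independent biological replicates and 1 array of a technical repeat, which stayed out of the test. How independent the 3 arrays are rests on the labels, and p-values measure the spread between them. Both groups carried the transgene and shared serum, vascular endothelial growth factor and interleukin 6 in the blast culture, and serum, oncostatin, basic fibroblast growth factor and stem cell factor in the last culture. Whether the line is a clone, and the state of its own Runx1 alleles, are not given in the sources used here. No arrays of doxycycline-treated cells without the transgene were analysed here, so the drug and the transgene cannot be told apart.

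Cells make cholesterol from acetyl-CoA through mevalonate, and the same arm supplies isoprenoids for other lipids and for protein prenylation. When sterol in the endoplasmic reticulum is low, SCAP escorts the SREBP transcription factors to the Golgi, where proteases release them to switch on sterol synthesis and uptake genes. INSIG proteins hold SCAP back when sterol is plentiful, and LXR receptors bound to oxysterols switch on efflux genes. In blood formation, sterol efflux through ABCA1 and ABCG1 is known to restrain the proliferation of progenitor cells.

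Levels below are given as relative log2 signal, the log2 of the processed spot intensity minus the array's 75th percentile, so that 0 is the brightness of that percentile. A difference of 1 between groups is 2-fold, differences are induced minus uninduced, and levels of different genes are not comparable because probes differ. The 75th percentile itself lay between 338 and 699 intensity units on the uninduced arrays and between 543 and 973 on the induced ones, with 55.6% to 70.4% of spots well above background over all 8 arrays. Against the 4 brightest spike-in probes it was higher in the induced array of each pair, by 1.13 ± 0.44 log2 units (SD, n = 3), so all differences are relative to each array's own RNA. The Runx1 probe read -4.57 in uninduced and -5.60 in induced cells (adjusted p = 0.126 in limma without a block, and 0.0214 within pairs of same-numbered arrays), near the dim end of the array. It therefore did not check the labels, and no source used here says whether it can see the transgene's transcript. The induced technical repeat array stood apart, with 50.7% of all genes above and 22.5% below the range of the 3 induced arrays.

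Endothelial and blood markers were checked on the same arrays. All 8 endothelial markers were well above background on all 6 arrays, and none rose. Tek fell by 1.13 and Eng fell by 0.92 on the log2 scale, and their list's summed signal, in multiples of the 75th percentile, ranged from 71.5 to 171 in uninduced and from 56.7 to 114 in induced cells. Of 8 blood progenitor markers 5 rose and none fell, with a summed signal of 53.1 to 67.3 against 94.9 to 126. Such sums weigh the brightest probes most, so they do not describe every gene of a list. Among the blood markers the brightest were Cd34, which differed by -0.24 and did not pass, and Itgb3, which rose by 3.91. None of 10 proliferation genes passed the test, although all 10 differences were above 0 and their summed signal was 237 to 303 against 337 to 343. Of 10 macrophage markers 7 were tested, of which Csf1r fell by 1.33 and none rose, with a summed signal of 48.7 to 57.1 against 31.8 to 51.6. Of 9 smooth muscle and fibroblast markers 8 were tested and none passed, with a summed signal of 787 to 887 against 557 to 678. Of 10 markers of hepatocytes and visceral endoderm, cell types with heavy sterol traffic, 3 were tested and none passed, at a summed signal of 3.30 to 4.43 against 3.00 to 3.80, while on none of the 6 arrays were Alb, Ttr, Apoa1 or Hnf4a well above background. The other untested markers of that list were detected on some arrays, Afp on 2 uninduced and 2 induced, Fgb on 2 and 1, and Apob on 1 induced array. Within pairs of same-numbered arrays 4 endothelial markers fell, 1 macrophage marker rose and 2 fell, and 1 smooth muscle and fibroblast marker rose and 3 fell. The part of these cell types in the sterol values below was not tested, and in bulk RNA fewer cells of a type and less RNA per cell cannot be told apart.

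Most sterol genes did not pass the test. Hsd17b7 and Ebp, enzymes of the late cholesterol pathway, rose in induced cells, no member fell, and 29 of 31 did not pass. The share that rose, 6.45% of the members, compares with 4.14% of all genes tested, of which 2.16% fell and 6.31% passed in either direction. At an unadjusted p under 0.05, 8 members were higher in induced cells and 0 lower in the same limma fit, 25.8% and 0% against 13.9% and 7.77% of all genes. The median difference of the 31 was 0.15, against 0.09 for all genes, and 20 of the 31 differences were above 0, 64.5% against 59.0% of all genes. All 3 induced arrays lay above all 3 uninduced arrays for 8 members, 25.8% against 19.6% of all genes, and below them for none, against 8.71% of all genes.

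Same-numbered arrays of the 2 groups deviated together, so the comparison was also made with the replicate number as a block, that is, within pairs. On this reading 7 members rose and 1 fell, 22.6% against 9.37% of all genes for rises, 3.23% against 6.81% for falls, and 25.8% against 16.2% in either direction. The induced array was the higher one in all 3 pairs for 15 members, 48.4% against 37.8% of all genes, and the lower one in all 3 for 5, 16.1% against 21.8%. The 6 members that passed only within pairs were Lss, Tm7sf2, Scap, Nr1h3 and Soat1, all higher in induced cells, and Insig1, which was lower. With every array in the fit and no block, 17 of the 31 members had a 95% interval that lay within 2-fold in both directions, and within pairs 23 did.

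**Figure D1:**
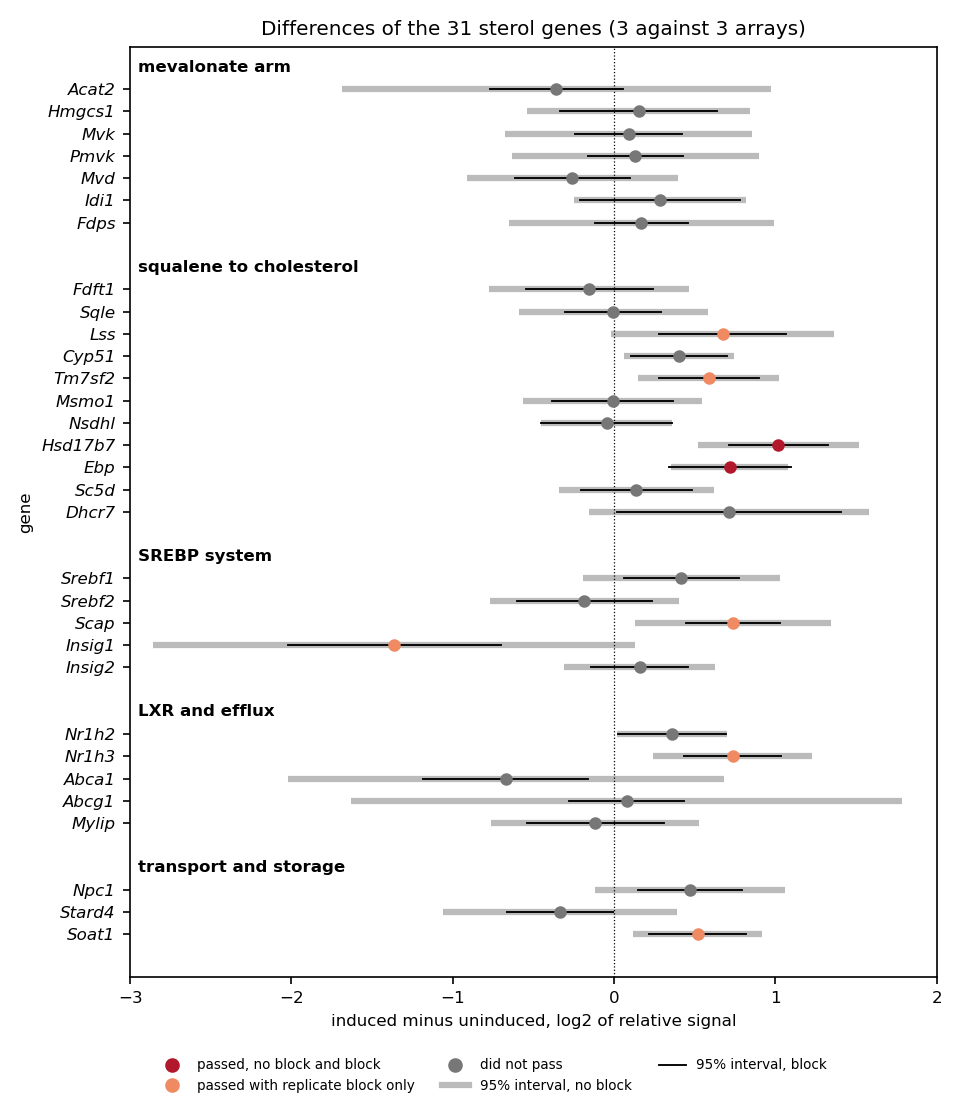
Difference of each of the 31 sterol genes between induced and uninduced cells in log2 units of relative signal, grouped by role (3 against 3 arrays). Points are the limma estimates, wide grey bars the 95% intervals without a block and thin black bars those within pairs: Hsd17b7 at 1.02 and Ebp at 0.72 passed in both fits, and Insig1 at -1.36 had the widest departure below 0.

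None of the 7 genes of the mevalonate arm passed in either fit. Of all genes, 6.31% passed without a block and 16.2% within pairs. The differences of the arm ran from -0.36 to 0.28 with a median of 0.13. The largest was that of Acat2, the cytosolic thiolase that joins acetyl-CoA units at the head of the pathway. Acat2 read -1.55, 0.01 and 0.17 in uninduced replicates 1, 2 and 3, and -1.67, -0.22 and -0.55 in the induced ones. Both replicate 1 arrays were far below the rest and the groups overlapped, although the induced array was the lower one in each pair. The difference was -0.36 (SE 0.56, 95% interval -1.69 to 0.97, adjusted p = 0.730, and 0.186 within pairs). A closely related gene, Acat3, lies in the mouse genome, and whether the probe separates the 2 transcripts was not tested.

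Further along the arm the estimated differences were small and none passed, but their intervals were wide, so shifts in either direction were not excluded. Without a block, the 95% intervals were -0.54 to 0.84 for Hmgcs1, -0.25 to 0.82 for Idi1 and -0.68 to 0.86 for Mvk. They were -0.63 to 0.90 for Pmvk, -0.91 to 0.39 for Mvd and -0.65 to 0.99 for Fdps. Hmgcs1, the synthase that makes HMG-CoA, differed by 0.15 (adjusted p = 0.781), and Idi1, the isomerase of the activated isoprene units, by 0.28 (adjusted p = 0.487). The 2 kinases that phosphorylate mevalonate differed by 0.09 for Mvk (adjusted p = 0.886) and 0.13 for Pmvk (adjusted p = 0.829). Mvd, the decarboxylase that follows them, differed by -0.26 (adjusted p = 0.604). Fdps, which makes the farnesyl diphosphate shared by sterol and prenylation routes, differed by 0.17 (adjusted p = 0.795).

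The arrays of replicate 1 were the low ones in this arm. In 6 of its 7 genes, all but Idi1, both replicate 1 arrays read below the other 4 arrays of the test, and the summed signal of the arm was 119 and 117 on the replicate 1 arrays against 177 to 224 on the other 4. Over all 31 members the same order held for 13, 41.9% against 11.1% of all genes, and the opposite order, both replicate 1 arrays highest, held for Insig2 alone, 3.23% against 14.6%. The replicate 1 pair also had the highest 75th percentiles of its group, 699 and 973 intensity units, and the lowest summed endothelial signal of its group. The part of either in the low sterol values was not tested.

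**Figure D2:**
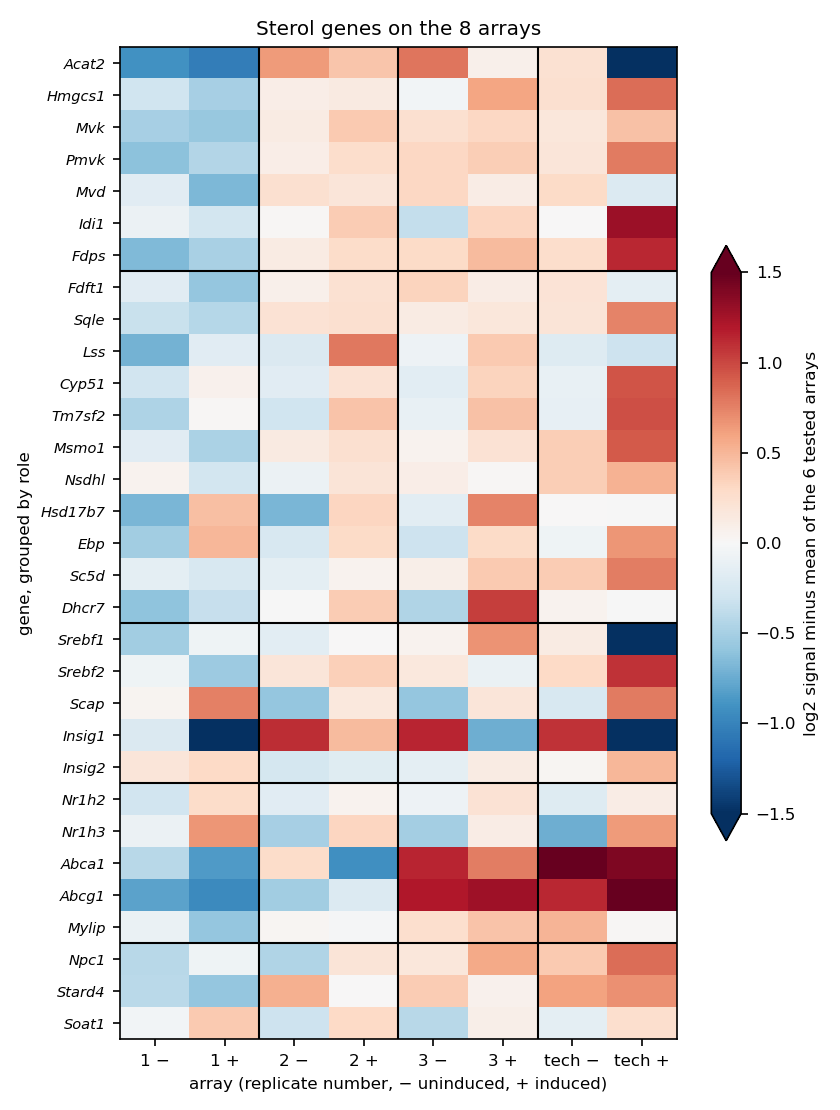
Relative log2 signal of the 31 sterol genes on all 8 arrays, each gene shown as the deviation from its mean over the 6 tested arrays, in pairs of uninduced (-) and induced (+) arrays and with the technical repeats at the right. The mevalonate genes at the top are low on both replicate 1 arrays, Insig1 is low on every induced array but that of replicate 2, and the induced technical repeat departs most.

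Of the 11 genes from squalene to cholesterol, 2 rose and none fell, 18.2% for rises against 4.14% of all genes. Within pairs 4 rose, 36.4% against 9.37% of all genes. The median difference was 0.40, and the group was not tested as a set. Hsd17b7 encodes the ketosteroid reductase of the complex that strips methyl groups from sterol intermediates. It read 0.65, 0.64 and 1.17 in uninduced replicates 1, 2 and 3, and 1.78, 1.65 and 2.08 in the induced ones. The groups did not overlap, and each induced array was above its uninduced partner. The difference was 1.02 (SE 0.21, 95% interval 0.52 to 1.52, adjusted p = 0.0392), a fold of 2.02 with an interval of 1.43 to 2.86. A second probe of Hsd17b7 gave a difference of 0.83.

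Ebp encodes the sterol isomerase that moves the ring double bond after demethylation. It read 4.28, 4.57 and 4.49 in uninduced cells and 5.30, 5.09 and 5.09 in induced cells. Again no induced array overlapped an uninduced one, and the replicate 1 pair was the widest apart. The difference was 0.72 (SE 0.15, 95% interval 0.36 to 1.08, adjusted p = 0.0432), a fold of 1.64 with an interval of 1.28 to 2.11.

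Both calls sat close to the threshold of 0.05. Leaving out any 1 array lost them, except that Hsd17b7 still passed without uninduced replicate 3. For Hsd17b7 the adjusted p was 0.0828 without uninduced replicate 1, 0.102 without induced replicate 1, 0.158 without uninduced replicate 2, 0.0780 without induced replicate 2, 0.0360 without uninduced replicate 3 and 0.122 without induced replicate 3. For Ebp it was 0.0798, 0.131, 0.124, 0.0945, 0.117 and 0.111 in the same order of arrays left out, while the differences stayed between 0.63 and 0.78. Hsd17b7 kept a difference of 0.90 to 1.19 over these 6 fits.

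Of the enzymes that act before them, Lss and Tm7sf2 passed only within pairs. Lss, the cyclase that makes lanosterol, read -0.21, 0.28 and 0.42 in uninduced cells and 0.33, 1.29 and 0.89 in induced cells. The groups overlapped because replicate 1 was low in both, and the induced array was the higher one in each pair. The difference of Lss was 0.67 (SE 0.29, adjusted p = 0.241, and 0.0447 within pairs). Tm7sf2, a sterol reductase that acts after lanosterol demethylation, read 1.79, 1.95 and 2.14 in uninduced cells and 2.27, 2.68 and 2.69 in induced cells. Its groups did not overlap. The difference of Tm7sf2 was 0.59 (SE 0.18, adjusted p = 0.129, and 0.0350 within pairs), and its second probe gave 0.50.

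Cyp51, the lanosterol demethylase between Lss and Tm7sf2, also showed no overlap between the groups, with 0.10 to 0.22 in uninduced and 0.44 to 0.71 in induced cells. Its difference of 0.40 did not pass (adjusted p = 0.171, and 0.0785 within pairs). Dhcr7, the last reductase of one branch of the pathway, differed by 0.71 with a wide spread between induced arrays, from 0.27 to 1.66 (adjusted p = 0.309).

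The remaining 5 genes of this stretch differed by -0.15 to 0.14. Sqle, the squalene epoxidase, differed by -0.01 with a 95% interval of -0.59 to 0.58 (adjusted p = 0.989). Msmo1, the methyl oxidase that works in the same complex as Hsd17b7, differed by -0.01 (adjusted p = 0.985). Nsdhl, the decarboxylating dehydrogenase of that complex, differed by -0.05 (adjusted p = 0.895). Fdft1, the squalene synthase, differed by -0.15 (adjusted p = 0.748), and Sc5d, the desaturase after Ebp, by 0.14 (adjusted p = 0.707). The interval for Sqle lies within 2-fold in both directions. The 2 kept probes of Fdft1 and of Nsdhl differed in sign, so no direction is given for these genes.

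**Figure D3:**
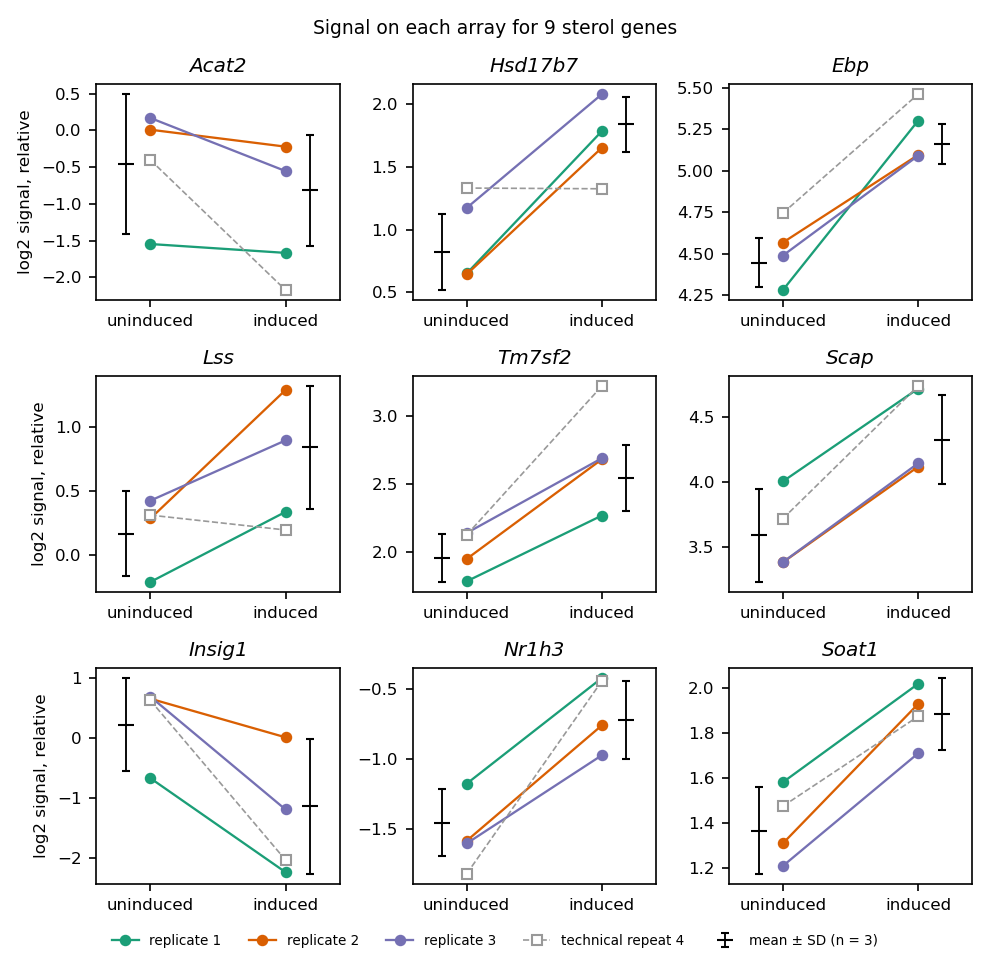
Relative log2 signal on each array for 9 sterol genes, the 8 that passed with or without the replicate block and Acat2, in uninduced and induced cells. Coloured lines join same-numbered arrays, grey squares are the technical repeats, and black bars are the mean ± SD (n = 3). The coloured lines of Hsd17b7, Ebp, Lss, Tm7sf2, Scap, Nr1h3 and Soat1 all climb, and those of Insig1 and Acat2 all descend.

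The bases before the start sites of Hsd17b7 and Ebp, the 2 members that passed in both fits, are shown with those of Insig1, the member with the widest difference in the opposite direction. They are RefSeq promoter sequences of the GRCm38.p6 assembly, 250 bases before the annotated start, with Hsd17b7 at chr1:169969206-169969455 on the minus strand, Ebp at chrX:8193513-8193762 on the minus strand and Insig1 at chr5:28071162-28071411 on the plus strand. Capitals mark CCAAT boxes on either strand, which read ATTGG on the opposite one, and the E-box CACGTG.
Hsd17b7: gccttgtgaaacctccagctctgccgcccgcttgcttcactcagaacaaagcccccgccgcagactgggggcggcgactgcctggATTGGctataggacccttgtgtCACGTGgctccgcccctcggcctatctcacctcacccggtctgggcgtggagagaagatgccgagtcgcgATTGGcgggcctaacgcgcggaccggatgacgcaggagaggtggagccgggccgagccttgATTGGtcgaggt
Ebp: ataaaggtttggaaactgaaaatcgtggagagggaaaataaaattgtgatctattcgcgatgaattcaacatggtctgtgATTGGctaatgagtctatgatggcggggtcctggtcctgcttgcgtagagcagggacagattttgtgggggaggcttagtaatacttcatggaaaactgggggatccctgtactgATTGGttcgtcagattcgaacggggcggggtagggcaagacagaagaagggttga
Insig1: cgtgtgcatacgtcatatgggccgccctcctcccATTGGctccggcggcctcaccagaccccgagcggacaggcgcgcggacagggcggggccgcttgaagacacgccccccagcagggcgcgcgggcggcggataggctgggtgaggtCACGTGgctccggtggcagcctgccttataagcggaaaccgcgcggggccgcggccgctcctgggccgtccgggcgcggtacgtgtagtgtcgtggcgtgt

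Hsd17b7 held 3 CCAAT boxes and 1 E-box, Ebp held 2 CCAAT boxes and no E-box, and Insig1 held 1 of each. CCAAT boxes are bound by NF-Y, which works beside SREBP on sterol promoters. Hsd17b7 and Insig1, whose differences had opposite signs, share the run GTCACGTGGCTCCG around the E-box. The run is 14 bases long and ends 131 bases before the start of Hsd17b7 and 89 bases before that of Insig1. It was found in 5 of all 32851 RefSeq promoter windows, which is 0.0152%. Each window holds 300 bases, 250 before and 50 after the start. The run was picked as the longest one shared by this pair, so its rarity cannot be read as a sign of a shared element. The longest run of Hsd17b7 and Ebp, GATTGGCTA, was found in 0.849% of all windows, and that of Ebp and Insig1, GGGCGGGG, in 17.6%.

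Of the 31 members 25 had such windows, 34 in all, and windows of 1 gene can overlap. Both strands were searched. A CCAAT box occurred in 21 of the 34 windows, 61.8% against 37.4% of all windows, and the E-box in 7, 20.6% against 7.15%. The sterol response element, searched as TCACNCCAC, occurred in 1 window, that of Hmgcs1, 2.94% against 1.24%. The letters of the RUNX core, searched as TGTGGT or TGCGGT, occurred in 3 windows, those of Acat2, Lss and 1 start of Pmvk, 8.82% against 22.4% of all windows. The E-box search was added after the sequences were seen, a match here is a run of letters and no measured binding, and no promoter sequences were matched for Sqle, Fdft1, Fdps, Npc1, Abcg1 and Stard4.

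In the SREBP system no member passed without the block, against 6.31% of all genes, and within pairs Scap rose and Insig1 fell. With 1 gene each of 5, that is 20% for rises against 9.37% of all genes, and 20% for falls against 6.81%. Scap encodes the escort that carries SREBP proteins from the endoplasmic reticulum. It read 4.01, 3.38 and 3.38 in uninduced replicates 1, 2 and 3, and 4.72, 4.12 and 4.14 in the induced ones. The groups did not overlap, and all 3 pairs were nearly the same distance apart, at 0.71, 0.74 and 0.76. The difference was 0.74 (SE 0.25, adjusted p = 0.162, and 0.0156 within pairs).

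Insig1 encodes the sterol-dependent anchor that retains SCAP, and it is itself a well-known SREBP target. It read -0.66, 0.66 and 0.70 in uninduced cells and -2.23, 0.02 and -1.19 in induced cells. The induced array was the lower one in all 3 pairs, but the groups overlapped, since induced replicate 2 read above uninduced replicate 1. The difference was -1.36 (SE 0.62, 95% interval -2.86 to 0.13, adjusted p = 0.265, and 0.0276 within pairs). It ranged from -1.94 without induced replicate 2 to -0.81 without induced replicate 1, with adjusted p of 0.134 and 0.533. Relative to the spike-in probes the difference of Insig1 was -0.24, and the other 30 of the 31 members were above 0 on that scale. Scaling to the spike-in probes moves all differences by the same amount, so it could not change the order of the members.

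Srebf1 and Srebf2 encode the transcription factors themselves, the former better known for fatty acid genes and the latter for sterol genes. Srebf1 differed by 0.42 (adjusted p = 0.386) and Srebf2 by -0.19 (adjusted p = 0.681). Insig2, the second anchor, differed by 0.16 (adjusted p = 0.660). The 2 kept probes of Srebf2 and of Insig2 differed in sign, so no direction is given for either.

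Among the LXR and efflux genes, Nr1h3 passed within pairs and the other 4 in neither fit. That is 1 gene of 5, 20% for rises within pairs against 9.37% of all genes. Nr1h3 encodes LXR alpha, the receptor form most abundant in liver and macrophages. It read -1.18, -1.58 and -1.60 in uninduced cells and -0.42, -0.76 and -0.97 in induced cells. The groups did not overlap. The difference was 0.73 (SE 0.21, adjusted p = 0.100, and 0.0177 within pairs), and the second probe gave 0.53. Nr1h2, the widely expressed LXR beta, also showed no overlap but differed by only 0.36 (adjusted p = 0.213, and 0.126 within pairs).

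The other 3 members of this group, Abca1, Abcg1 and Mylip, are among the genes that LXR is known to activate. None of these 3 passed in either fit. Abca1, which loads cholesterol onto apolipoproteins, read -0.63, 0.07 and 0.94 in uninduced cells and -1.06, -1.13 and 0.55 in induced cells. It was lower in the induced array of all 3 pairs, and the groups overlapped widely. The difference was -0.67 (SE 0.57, adjusted p = 0.514, and 0.0838 within pairs). Abcg1, its partner in efflux, had the largest SE of any member, 0.71, and ranged from -2.30 to -0.07 in induced cells. Its pairs stayed close together, with a difference of 0.08 (adjusted p = 0.958). Mylip, the ubiquitin ligase that degrades lipoprotein receptors, differed by -0.12 (adjusted p = 0.821), and its second kept probe gave -0.91.

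Of the 3 transport and storage genes, Soat1 passed within pairs. That is 1 gene of 3, 33.3% for rises within pairs against 9.37% of all genes. Soat1 encodes the enzyme that esterifies cholesterol for storage in lipid droplets. It read 1.58, 1.31 and 1.21 in uninduced cells and 2.02, 1.93 and 1.71 in induced cells. The groups did not overlap. The difference was 0.52 (SE 0.17, adjusted p = 0.140, and 0.0443 within pairs). Npc1, which exports cholesterol from lysosomes, differed by 0.47 and was higher in the induced array of all 3 pairs (adjusted p = 0.320, and 0.0668 within pairs). Stard4, a soluble cholesterol carrier, differed by -0.33 and was lower in all 3 pairs (adjusted p = 0.544, and 0.142 within pairs).

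Other genes of sterol and fatty acid metabolism were read from a further list of 44, of which 42 were tested and Cyp27a1 and Thrsp were well above background on 0 of the 6 arrays. Of the 42, 4 rose and none fell, 9.52% against 6.31% of all genes passing in either direction, and 7 rose and none fell within pairs, 16.7% against 16.2% of all genes passing there in either direction. At an unadjusted p under 0.05, 8 were higher and 1 was lower in limma without a block, 19.0% and 2.38% against 13.9% and 7.77% of all genes. The median difference was 0.19. Vldlr, a receptor for triglyceride-rich lipoproteins, read -2.56, -2.83 and -2.42 in uninduced cells and 0.29, 1.16 and 1.81 in induced cells. The groups were far apart, with a difference of 3.69 (SE 0.37, adjusted p = 0.00382). Vldlr still passed when any 1 of the 6 arrays was left out.

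Soat2, the second cholesterol-esterifying enzyme, is best known from intestine and liver. It read -1.47, -2.15 and -2.71 in uninduced cells and 0.19, 0.19 and -0.38 in induced cells. The difference was 2.11 (SE 0.34, adjusted p = 0.0171). It did not pass without induced replicate 1, uninduced replicate 2 or induced replicate 2, with adjusted p of 0.0603, 0.0727 and 0.0686, though the difference stayed above 2 in each.

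Abca7, a lipid transporter related to Abca1, read 2.59, 2.44 and 2.53 in uninduced cells and 3.30, 3.34 and 3.63 in induced cells. The groups did not overlap, and the difference was 0.90 (SE 0.15, adjusted p = 0.0212). The call was lost without uninduced replicate 2, induced replicate 2, uninduced replicate 3 or induced replicate 3, with adjusted p of 0.105, 0.0581, 0.0715 and 0.0710. Elovl6, an elongase of saturated fatty acids, read 2.81, 2.75 and 2.74 in uninduced cells and 3.34, 3.34 and 3.60 in induced cells. Its difference was 0.66 (SE 0.14, adjusted p = 0.0461), and no fit that left out 1 array kept the call, with adjusted p from 0.0740 without uninduced replicate 1 to 0.183 without uninduced replicate 2.

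Within pairs Lrp1, Apoe and Acss2 were added, at 0.57, 1.19 and 0.67 (adjusted p within pairs 0.0315, 0.00738 and 0.0404). The second kept probe of Acss2 gave a difference of -0.01, so the rise of Acss2 rests on its brighter probe alone. Lrp1 is an endocytic receptor for apolipoprotein E, Apoe encodes that apolipoprotein, and Acss2 makes acetyl-CoA from acetate. Among genes that did not pass, Mbtps2, the site protease that completes SREBP release, differed by -1.07 with no overlap between the groups (adjusted p = 0.111, and 0.0628 within pairs). The fatty acid synthase Fasn differed by 0.14 (adjusted p = 0.623).

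**Figure D4:**
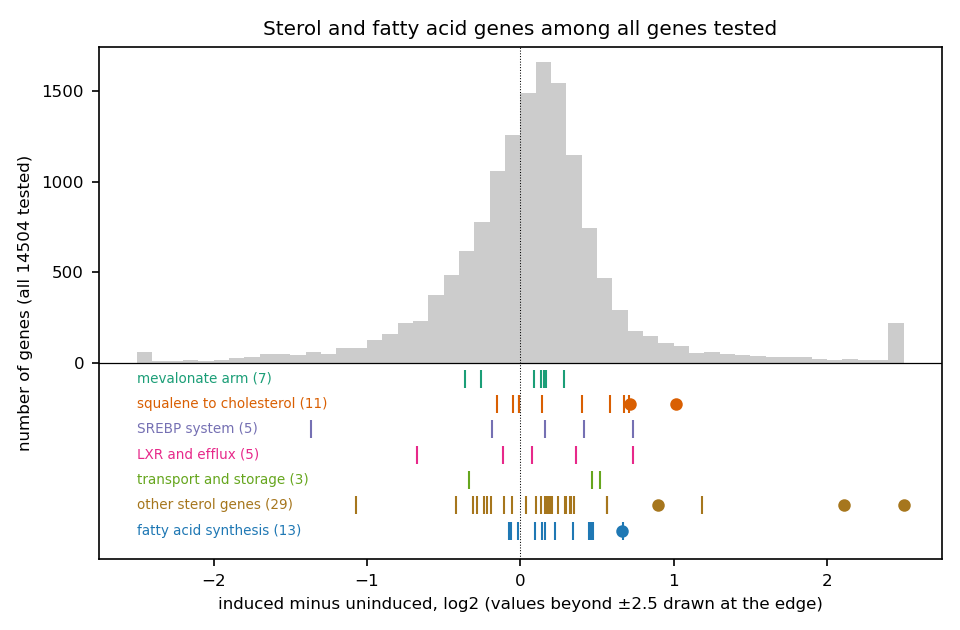
Histogram of the differences of all 14504 genes tested (induced minus uninduced, log2 units; values past ±2.5 are drawn at the edge), with the sterol and fatty acid genes below it by role, as ticks or, for genes that passed without a block, as discs. The mevalonate ticks lie within the bulk of the histogram, and the discs are Hsd17b7 and Ebp among the members and Vldlr, Soat2, Abca7 and Elovl6 on the further lists.

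These sterol values also depend on how arrays were scaled. Scaling to the spike-in probes moved the median of all genes from 0.09 to 1.22 and that of the members from 0.15 to 1.28. On that scale 30 of 31 members had a difference above 0 and none passed. Among genes that passed, 65.7% were higher in induced cells with the 75th percentile, 76.9% with median centring and 98.5% with the spike-in probes.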

How the data were processed

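RNA of 8 samples, 1 per array, was labelled with Cy3 from 25 ng. The authors deposited scanner output with spot intensity as processed and median signal on a linear scale. Extraction was by Feature Extraction 10.7.3.1 per the file headers, and by version 10.7.1.1, followed by limma, per the submitters' processing notes. A deposited table gives log2 values, and how these were normalized is not stated. Medians of its 8 columns were 5.36 to 5.38. Set against each array over 19751 spots, 2 columns tracked the array they are named for and 6 another, 4 of them one of the other group. What the values are centred on stays unknown, so the scanner files were the source here and both readings of the table were tried as alternatives.

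Control spots and 114 to 246 outlier spots per array were left out. None of the 59305 other spots was saturated. From each log2 processed signal the 75th percentile of its array was subtracted, and repeated spots were averaged, which gave 55681 probes. RefSeq accessions named 26582 probes through a GRCm38.p6 table, and 29099 stayed unnamed. Probes well above background on all 3 arrays of at least 1 group were kept, and the brightest stood for its gene.

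Groups and replicate numbers come from the titles. The test was two-sided, by limma 3.58.1 in R 4.3.3 (functions lmFit and eBayes), and p-values were adjusted by Benjamini-Hochberg over 14504 genes, with a threshold of 0.05. Same-numbered arrays deviated together from their group means (correlations over genes 0.65, 0.45 and 0.43), so the fit with the replicate number as a block is given where it changes a call. The number of arrays limits the precision. The script was tested on simulated data. Alternatives were normexp (offset 50, on the median signal in place of the mean signal that had been planned), quantile, median and spike-in scaling, other filters, the mean of a gene's probes, the deposited table and leaving out each array. The members and lists were chosen with earlier results of these data known. All members are named. Values on each array are given for members that passed in either fit and for the member with the largest difference of its role, plus Abca1, which was added after its values were seen. Further genes past the threshold in either fit are named too, and Mbtps2 and Fasn were added after their values were seen.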

Additional observations from a re-analysis of the deposited data

How the results depend on the processing

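Counts of genes that passed are compared with 915 of all genes, 2 members that rose and 0 that fell, and 4 further genes that rose. With the replicate number as a block they were 2346, 7, 1 and 7. Without a filter on dim probes they were 534, 0, 0 and 2. In the deposited table read as named no gene passed. By the arrays its columns tracked, each side of that comparison mixed uninduced and induced arrays. That reading therefore could not show how the calls depend on processing. Members that rose numbered 1 with normexp on the median signal, 1 with quantile normalization, 0 with spike-in scaling and 1 in the table read as tracked. Leaving out 1 array gave 358 to 822 genes, 0 to 1 members that rose and 1 to 3 further genes.

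Differences with the sign reversed were as follows. In the table read as named these were Acat2 0.74, Mvd 0.43, Fdft1 0.41, Sqle 0.41, Msmo1 0.41, Nsdhl 0.15, Srebf2 0.48, Scap -0.30, Insig1 1.12, Insig2 -0.21, Nr1h2 -0.069, Nr1h3 -0.25, Abca1 0.33, Mylip 0.35, Stard4 0.64, Soat1 -0.017, Abca7 -0.034 and Soat2 -0.24. With spike-in scaling they were Acat2 0.77, Mvd 0.87, Fdft1 0.97, Sqle 1.12, Msmo1 1.12, Nsdhl 1.08, Srebf2 0.94, Abca1 0.46, Mylip 1.01 and Stard4 0.79. With median centring they were Fdft1 0.0028, Sqle 0.15, Msmo1 0.15, Nsdhl 0.11 and Mylip 0.041. With the mean of kept probes they were Fdft1 0.11, Srebf2 0.024 and Insig2 -0.072, with normexp Sqle 0.077, Msmo1 0.071 and Abcg1 -0.019, and with quantile normalization Mvk -0.017. Leaving out 1 array gave ranges across 0 for Acat2 (-0.90 to 0.069), Hmgcs1 (-0.11 to 0.44), Mvk (-0.13 to 0.40), Pmvk (-0.14 to 0.38), Mvd (-0.41 to 0.017), Fdps (-0.12 to 0.46), Fdft1 (-0.31 to 0.097), Sqle (-0.17 to 0.21), Msmo1 (-0.13 to 0.23), Nsdhl (-0.15 to 0.082), Sc5d (-0.025 to 0.30), Srebf2 (-0.41 to 0.039), Abcg1 (-0.54 to 0.70) and Mylip (-0.36 to 0.15). Spike-in scaling and median centring each move the differences of all genes by the same amount. In the table read as named, 4 of the 8 columns tracked an array of the other group. The cause of the other reversals was not tested.

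The slide could not be used as a block, since all 8 arrays shared 1 slide. Among the genes named, the block changed no call besides those given beside the results. Without a block Hsd17b7 and Ebp passed with median centring, with the mean of kept probes and with only probes well above background on all 6 arrays. The number of arrays limits what a missed threshold shows.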

Other observations

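The technical repeats, for which the labels do not say which replicate was hybridised again, gave the same sign as the test for 22 of the 31 sterol genes, 71.0% against 77.6% of all genes. Of the 8 members that passed in either fit, 2 did not show there what the 3 pairs showed. Hsd17b7 read 1.33 on both repeat arrays, and Lss read 0.31 on the uninduced and 0.19 on the induced one. Ebp read 4.74 and 5.46, Tm7sf2 2.13 and 3.22, and Soat1 1.47 and 1.87. Insig1 read 0.63 and -2.03, Scap 3.72 and 4.74, and Nr1h3 -1.82 and -0.45, each in the direction of the 3 pairs.

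The induced repeat array read above all 3 induced arrays for 19 of the 31 members, 61.3% against 50.7% of all genes. It read below all 3 for 4 of the members, 12.9% against 22.5% of all genes. The summed signal of the mevalonate arm was 310 there, against 117 to 224 on the 3 induced arrays, while Acat2 read -2.17 and Srebf1 -3.05. The values of that array entered no test.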
